A study of Mus musculus with 4 samples.

Results

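The genes described here are 29 mouse genes of cholesterol synthesis, sterol sensing, intracellular cholesterol transport and cholesterol efflux, found by symbol in a table of expression values for muscle stem cells. Of the 29, 28 had a row among the 24328 symbols of the table, and Hmgcs1 was not analysed here. All 28 passed the filter on low values (1 FPKM or more in at least 2 libraries), which 12179 genes passed. FPKM counts fragments per kilobase of transcript, scaled to sequencing depth, so levels of different genes can be set side by side. That the values are FPKM was inferred, as described under processing. The genes were chosen with the difference between the groups below in view, so their values in that comparison are a description and carry no test.

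The samples were satellite cells, the stem cells of skeletal muscle, fixed in the body by paraformaldehyde (PFA) perfusion and sorted by flow cytometry, with 2 libraries in each of 2 groups. The DEK group carried Pax7CreERT2/+ with H11DEK-EGFP/+ and was 4.5 months old. The YFP group carried Pax7CreERT2/+ with ROSA26YFP/+ and was 7 months old. All mice thus had an inducible Cre on 1 Pax7 allele, which acts in Pax7-expressing cells, and the animals behind each library, their number and sex, and the tamoxifen schedule were not given. Age, inserted locus and reporter go with the group and cannot be told apart from raised Dek. The labels do not say that replicates are separate animals, so each SD measures the spread between these libraries. Each SE comes from the limma fit described below, which draws a gene's variance towards that of all genes tested. An SE can thus lie above or below what the gene's own libraries would give. Dek stood at 3196 and 1639.5 FPKM in DEK and at 512 and 504 FPKM in YFP. The stem cell marker Pax7 stood at 119 and 184 FPKM in DEK and at 106 and 93.9 FPKM in YFP. All 10 muscle stem cell markers were measured above the filter. In 6 of them both DEK values lay above both YFP values, and in 1, Myf5, both lay below (34.0% and 26.9% of all genes tested). Myf5 stood at 220 and 267 FPKM in DEK and at 312 and 306 FPKM in YFP. The fit described below called 1 of the 10, Chrdl2, higher and 0 lower (4.57% and 3.21% of all genes tested).

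Cells make cholesterol from acetyl-CoA through mevalonate, isoprenoids, squalene and lanosterol. When sterols in the endoplasmic reticulum run low, the escort protein Scap carries the precursors of the transcription factors SREBP1 and SREBP2 to the Golgi, where they are cut and released to raise transcription of synthesis and uptake genes; Insig proteins hold Scap back when sterols are plentiful. When oxysterols accumulate, the nuclear receptors Lxr alpha and Lxr beta, paired with Rxr, raise efflux transporters and the ubiquitin ligase that removes lipoprotein receptors. SREBP acts beside the factors NF-Y and Sp1 at many of its promoters. Isoprenoids made on the way also modify proteins and enter dolichol and ubiquinone.

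The promoters of several of these genes are shown because their motif content can be set beside the expression values that follow. RefSeq promoter windows of GRCm38.p6 were matched by symbol for 23 of the 29 genes, with 31 windows in all, and Fdps, Fdft1, Sqle, Stard4, Npc1 and Abcg1 had no entry. Each line gives the 250 bases before the annotated start, 5′ to 3′ on the strand of the gene, with CCAAT, the NF-Y motif, in capitals on either strand (ATTGG where it lies on the other strand). Idi1, Msmo1, Hsd17b7 and Insig1 were higher in DEK, Insig2 was at a similar level in all libraries and Abca1 was lower in DEK.
Idi1, chr13:8885356-8885605, plus strand: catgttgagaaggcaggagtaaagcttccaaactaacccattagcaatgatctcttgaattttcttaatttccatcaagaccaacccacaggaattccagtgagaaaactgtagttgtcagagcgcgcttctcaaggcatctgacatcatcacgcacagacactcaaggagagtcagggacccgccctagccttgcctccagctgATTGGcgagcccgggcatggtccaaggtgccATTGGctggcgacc
Msmo1, chr8:64733579-64733828, minus strand: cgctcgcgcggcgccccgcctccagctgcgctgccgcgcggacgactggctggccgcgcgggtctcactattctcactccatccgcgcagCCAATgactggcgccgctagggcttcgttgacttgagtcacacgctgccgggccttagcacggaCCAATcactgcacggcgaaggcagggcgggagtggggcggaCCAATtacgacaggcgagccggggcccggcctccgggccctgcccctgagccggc
Hsd17b7, chr1:169969206-169969455, minus strand: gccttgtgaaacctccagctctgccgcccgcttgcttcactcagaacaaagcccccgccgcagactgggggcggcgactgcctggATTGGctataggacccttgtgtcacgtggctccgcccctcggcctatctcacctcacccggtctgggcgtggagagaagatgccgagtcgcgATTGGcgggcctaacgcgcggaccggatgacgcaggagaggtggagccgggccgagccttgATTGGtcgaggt
Insig1, chr5:28071162-28071411, plus strand: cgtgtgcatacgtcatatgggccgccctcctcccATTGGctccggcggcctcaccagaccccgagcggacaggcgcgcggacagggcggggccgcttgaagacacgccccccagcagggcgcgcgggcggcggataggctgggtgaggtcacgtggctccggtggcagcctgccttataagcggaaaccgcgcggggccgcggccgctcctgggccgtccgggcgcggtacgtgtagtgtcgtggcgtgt
Insig2, chr1:121332590-121332839, minus strand: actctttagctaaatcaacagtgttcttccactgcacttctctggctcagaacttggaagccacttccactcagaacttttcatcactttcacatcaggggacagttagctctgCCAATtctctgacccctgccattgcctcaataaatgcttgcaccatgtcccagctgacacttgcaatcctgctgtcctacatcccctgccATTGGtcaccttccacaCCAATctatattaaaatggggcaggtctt
Abca1, chr4:53159896-53160145, minus strand: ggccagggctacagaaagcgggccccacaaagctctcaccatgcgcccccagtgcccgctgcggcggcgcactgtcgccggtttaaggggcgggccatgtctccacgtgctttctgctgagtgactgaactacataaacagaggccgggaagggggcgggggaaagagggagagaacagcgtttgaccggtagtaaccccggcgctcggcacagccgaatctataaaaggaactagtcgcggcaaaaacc

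In the 300-base windows (250 before and 50 after the start), CCAAT on either strand was present in 14 of 18 windows of mevalonate and sterol arm genes, which is 77.8%, against 37.4% of all 32851 windows in the table. Counted by gene, 20 of the 23 genes with a window held it, against 11096 of all 27025 genes with a window. Of these 23, 8 are among the 12 genes called higher in DEK by the fit described below, and all 8 held it. Most of the other genes with a window held it too, and nothing is read from the 8. GGGCGG, the Sp1 motif, was present in 15 of those 18 windows (83.3%), against 35.7% of all windows. The median G+C content was 60.8% in the 18 windows and 66.5% in those of the 8 genes called higher, against 52.7% over all windows, and the part of base composition in these shares was not tested. A strict form of the sterol response element, TCACNCCAC, matched in 1 of the 31 windows, that of Hmgcs1, against 1.24% of all windows. The E-box CACGTG was present in 7 of 31 windows (22.6%), against 7.15% of all windows. These were windows of Hsd17b7, Insig1, Sc5d, Dhcr7, Abca1 and Scap, whose 2 windows overlap and hold the same site. By gene, 6 of 23 held it, against 2187 of 27025. The direct repeat bound by Lxr with Rxr (DR4, in its consensus letters) matched in 0 of 31 windows and in 0.0152% of all windows. No match of TCACNCCAC, CACGTG or CCAAT in these windows overlapped another of the motifs searched. A match describes letters in the window only; Insig2 has 3 windows, of which the one shown has 3 CCAAT matches and the other 2 have 0.

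Most of the 17 measured synthesis genes stood higher in DEK than in YFP. The 3 efflux and receptor degradation genes stood lower, Mylip only slightly. The summed level of the 17 measured synthesis genes was 408 and 509 FPKM in DEK replicates 1 and 2, and 111 and 103 FPKM in YFP replicates 1 and 2. On the log2(FPKM + 1) scale the median log2 fold change of DEK over YFP was 2.06 for the 17 synthesis genes and -0.57 for the 3 efflux and receptor degradation genes, beside 0.05 for all 12179 genes tested. In 15 of the 17 synthesis genes both DEK values lay above both YFP values, and in the 3 efflux and receptor degradation genes both lay below. Over all 28 genes, 19 had DEK above YFP without overlap and 4 had DEK below, where 34.0% and 26.9% of all genes tested did so; these shares are given as the background, and nothing is read from them because this difference entered the choice of genes.

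**Figure D1:**
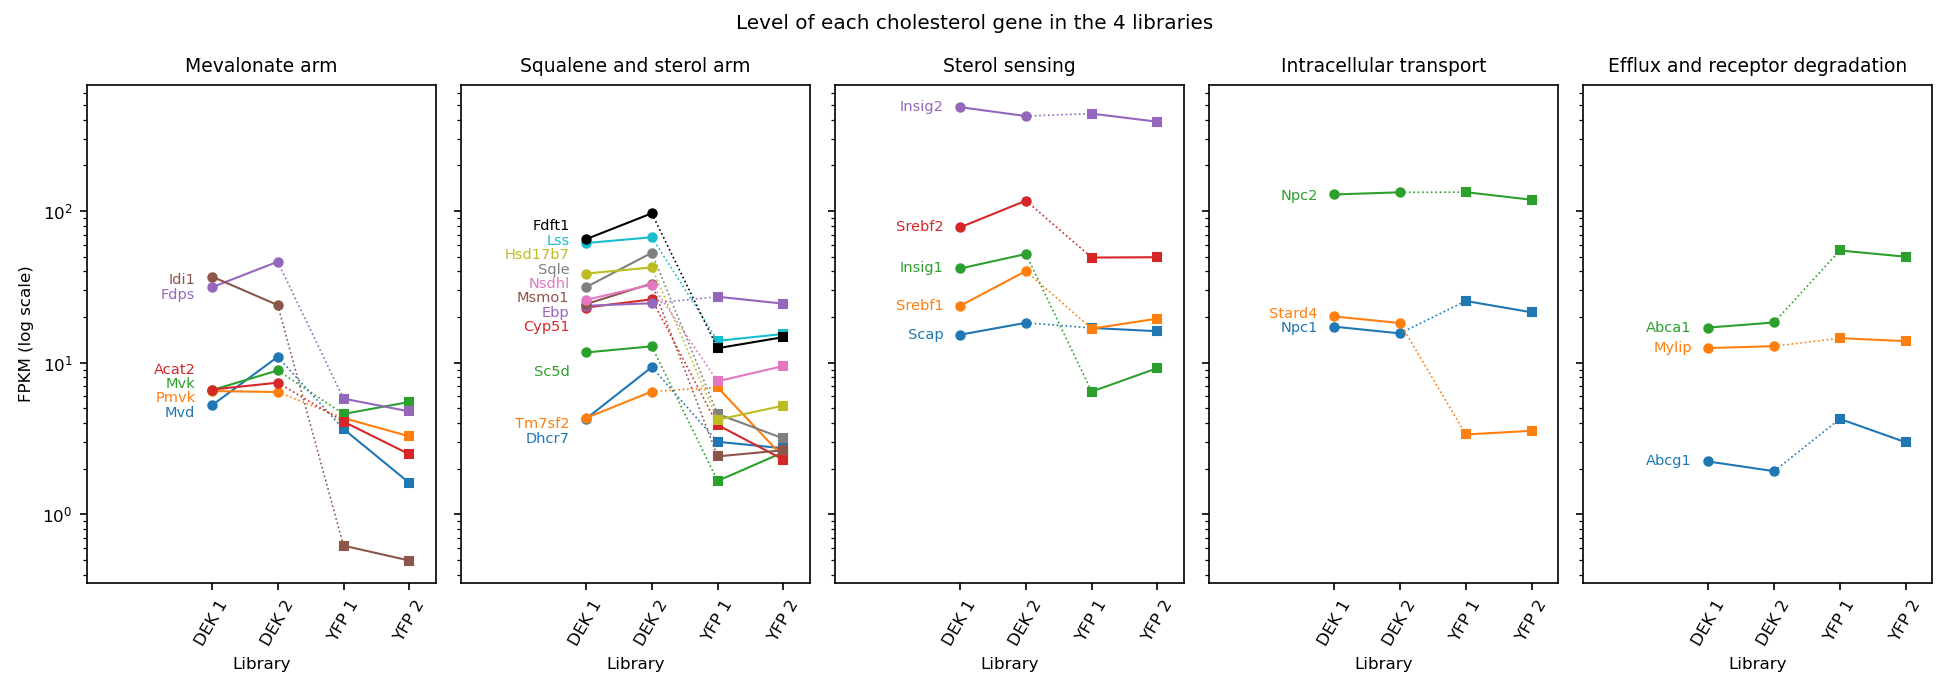
Level of each of the 28 genes in FPKM (vertical axis, log scale) in DEK replicates 1 and 2 (circles) and YFP replicates 1 and 2 (squares), in 5 panels by role, with solid lines joining libraries of a group. Idi1 spans the widest range, with 37.0 and 24.0 FPKM in DEK and 0.622 and 0.496 FPKM in YFP, while Insig2, Npc2, Scap and Ebp run almost level.

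In the mevalonate arm, which builds the isoprenoid units, Idi1 had the largest difference of the 28 genes. Idi1 interconverts the 2 isoprenoid building blocks and stood at 37.0 and 24.0 FPKM in DEK replicates 1 and 2, and at 0.622 and 0.496 FPKM in YFP replicates 1 and 2. It was thus among the best expressed synthesis genes in DEK replicate 1 and below 1 FPKM in both YFP libraries. The ratio of group means was 54.6 (log2 fold change 4.31, SE 0.25). The size of this difference depends on the low YFP values. With 0.1 added to each FPKM value in place of 1, the log2 fold change was 5.51, and with 5 it was 2.65.

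Fdps joins those units into farnesyl diphosphate, the branch point towards sterols and prenylated proteins. It stood at 31.5 and 46.4 FPKM in DEK, and at 5.80 and 4.78 FPKM in YFP. Each DEK library was thus well above each YFP library, with DEK replicate 2 the higher (log2 fold change 2.65, SE 0.23).

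The 4 other measured enzymes of this arm differed less. In each, both DEK values lay above both YFP values, as they did in 34.0% of all genes tested. Mvd, which decarboxylates the mevalonate intermediate, stood at 5.23 and 10.9 FPKM in DEK, and at 3.66 and 1.61 FPKM in YFP. Its replicates were far apart within each group (log2 fold change 1.31, SE 0.41). Acat2, the cytosolic thiolase that starts the route, averaged 7.02 ± 0.517 FPKM in DEK and 3.29 ± 1.13 FPKM in YFP (SD, n = 2 each). The kinases Mvk and Pmvk, which phosphorylate mevalonate in turn, had the smallest differences of the arm (Mvk: log2 fold change 0.52, SE 0.22; Pmvk: 0.65, SE 0.20). Mvk averaged 7.75 ± 1.63 FPKM in DEK and 5.05 ± 0.654 FPKM in YFP, and Pmvk 6.46 ± 0.0634 FPKM in DEK and 3.80 ± 0.742 FPKM in YFP (SD, n = 2 each).

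From squalene onwards, 8 of 11 genes had log2 fold changes between 1.67 and 3.12. Fdft1, squalene synthase, commits farnesyl diphosphate to sterols and was the most abundant synthesis gene in DEK, at 65.3 and 96.8 FPKM, against 12.5 and 14.8 FPKM in YFP. Sqle, the epoxidase that acts next and is a control point of the route, stood at 31.5 and 53.1 FPKM in DEK, against 4.59 and 3.17 FPKM in YFP. DEK replicate 2 was the highest library for both genes, and the ratios of group means were 5.95 for Fdft1 and 10.9 for Sqle.

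Lss closes the ring to lanosterol, and Cyp51 removes a methyl group from it. Lss stood at 61.6 and 67.2 FPKM in DEK, and at 13.9 and 15.5 FPKM in YFP. Cyp51 stood at 23.1 and 26.2 FPKM in DEK, and at 3.89 and 2.30 FPKM in YFP. Replicates lay close together for both genes in DEK, and the log2 fold change was 2.06 for Lss (SE 0.15) and 2.67 for Cyp51 (SE 0.24).

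Msmo1, Nsdhl and Hsd17b7 act together in removing the remaining methyl groups. Msmo1 stood at 24.4 and 33.3 FPKM in DEK, and at 2.41 and 2.65 FPKM in YFP. Hsd17b7 stood at 38.7 and 42.5 FPKM in DEK, and at 4.21 and 5.21 FPKM in YFP. Nsdhl stood at 26.0 and 32.8 FPKM in DEK, and at 7.55 and 9.52 FPKM in YFP. The ratio of group means was 11.4 for Msmo1 and 8.62 for Hsd17b7, while Nsdhl, the best expressed of the 3 in YFP, had a ratio of 3.44.

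The last steps were mixed. Sc5d, a desaturase, stood at 11.7 and 12.8 FPKM in DEK, and at 1.66 and 2.57 FPKM in YFP (log2 fold change 2.10, SE 0.22). Dhcr7, a final reductase, stood at 4.27 and 9.36 FPKM in DEK, and at 3.01 and 2.73 FPKM in YFP, so that its difference came mostly from DEK replicate 2 (log2 fold change 0.93, SE 0.34). The other 2 genes overlapped between the groups. The sterol isomerase Ebp stood at 23.7 and 24.7 FPKM in DEK and at 27.2 and 24.5 FPKM in YFP. Tm7sf2, a sterol reductase, stood at 4.32 and 6.46 FPKM in DEK and at 6.88 and 2.39 FPKM in YFP, so that its YFP libraries spanned both DEK values.

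**Figure D2:**
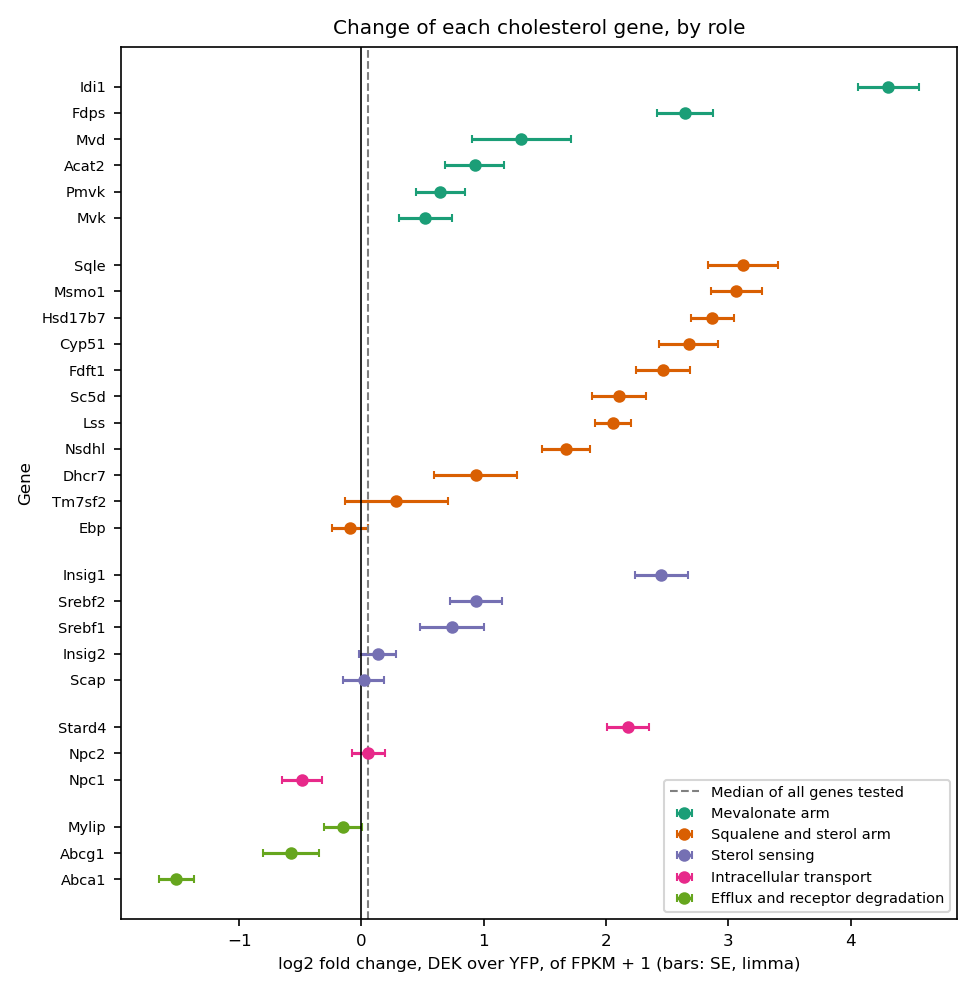
Log2 fold change of DEK over YFP on the log2(FPKM + 1) scale (horizontal axis) for each of the 28 genes (rows, grouped by role), with bars for the SE from limma and a dashed line at 0.05, the median of all genes tested. Idi1 lies farthest to the right at 4.31 and Abca1 farthest to the left at -1.51.

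Of the sensing genes, Insig1, which SREBP itself induces, differed most, Srebf2 and Srebf1 differed less, and Insig2 and Scap overlapped between the groups. Insig1 stood at 41.8 and 52.1 FPKM in DEK, and at 6.45 and 9.22 FPKM in YFP (log2 fold change 2.45, SE 0.22). Insig2, its paralog, was by far the most abundant of the 28 genes and stood at 485 and 424 FPKM in DEK, and at 439.7 and 389 FPKM in YFP. Its groups overlapped, and the ratio of Insig2 to Insig1 was 11.6 and 8.13 in DEK and 68.1 and 42.1 in YFP.

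Srebf2, which encodes SREBP2, the main driver of sterol synthesis, stood at 78.2 and 117 FPKM in DEK, and at 49.4 and 49.7 FPKM in YFP. Srebf1, which encodes SREBP1 and is known as a target of Lxr as well as of SREBP, stood at 23.7 and 40.2 FPKM in DEK, and at 16.8 and 19.6 FPKM in YFP. For both, DEK was above YFP in each library and DEK replicate 2 was well above DEK replicate 1 (log2 fold change 0.94 for Srebf2, SE 0.21, and 0.74 for Srebf1, SE 0.26). Scap averaged 16.8 ± 2.15 FPKM in DEK and 16.6 ± 0.580 FPKM in YFP (SD, n = 2 each), with overlapping groups.

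Of the transport genes, Stard4 differed most. It encodes a cytosolic sterol carrier and is a known SREBP2 target, and it stood at 20.2 and 18.3 FPKM in DEK, and at 3.36 and 3.56 FPKM in YFP (log2 fold change 2.18, SE 0.17). Npc1 and Npc2 hand cholesterol out of lysosomes. Npc1 stood at 17.3 and 15.6 FPKM in DEK and was higher in YFP, at 25.6 and 21.5 FPKM (log2 fold change -0.49, SE 0.17). Npc2 averaged 131 ± 3.09 FPKM in DEK and 126 ± 10.2 FPKM in YFP (SD, n = 2 each), with overlapping groups.

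The 3 Lxr-type genes of efflux and receptor degradation were all lower in DEK, to very different degrees. Both DEK values lay below both YFP values in 26.9% of all genes tested. Other Lxr-type genes, described below, differed in both directions. Abca1, which loads cholesterol onto apolipoproteins at the cell surface, stood at 17.1 and 18.4 FPKM in DEK, and at 55.0 and 50.1 FPKM in YFP. Both replicates were close in each group, and the mean in DEK was 0.338 of that in YFP (log2 fold change -1.51, SE 0.15). Abcg1, which exports cholesterol to lipoprotein particles, was low throughout, at 2.23 and 1.93 FPKM in DEK, and at 4.26 and 2.99 FPKM in YFP (log2 fold change -0.57, SE 0.23). Mylip, a ubiquitin ligase that directs lipoprotein receptors to degradation, averaged 12.7 ± 0.260 FPKM in DEK and 14.2 ± 0.439 FPKM in YFP (SD, n = 2 each), a log2 fold change of -0.15 with an SE of 0.16.

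A limma fit over all 12179 genes with Benjamini-Hochberg adjustment called 12 of the 28 genes higher in DEK at an adjusted p under 0.05 (4.57% of all genes tested), and 1 lower, Abca1 (3.21% of all genes tested). The 12 were Idi1, Fdps, Fdft1, Sqle, Lss, Cyp51, Msmo1, Nsdhl, Hsd17b7, Sc5d, Insig1 and Stard4. Idi1 was below 1 FPKM in both YFP libraries and passed the filter only through DEK, so it could only come out higher. Nothing is read from these counts, because the genes were chosen on the same difference. When DEK replicate 1 was omitted from the fit, limma called 0 of the 28 genes higher (16 at an unadjusted p under 0.05) and 0 genes of the whole table (2215 at an unadjusted p under 0.05). Omitting DEK replicate 2, YFP replicate 1 or YFP replicate 2 left 5, 9 or 8 of the 28 genes called higher. Abca1 lost its call in each of these 4 fits, while its log2 fold change was -1.46, -1.57, -1.45 and -1.58 without DEK replicate 1, DEK replicate 2, YFP replicate 1 and YFP replicate 2. In the same order, 1, 1, 1 and 3 of the 28 genes were lower at an unadjusted p under 0.05 in limma.

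The 2 DEK libraries differed from each other. DEK replicate 2 was above DEK replicate 1 in 15 of 17 synthesis genes, the exceptions being Idi1 and Pmvk, and in 62.6% of all genes tested. Of 10 stress and immediate early genes (Fos, Fosb, Jun, Junb, Egr1, Ier2, Atf3, Nr4a1, Hspa1a and Hspa1b), 0 were higher in DEK replicate 2 than in DEK replicate 1. On the log2(FPKM + 1) scale, DEK replicate 1 exceeded the YFP mean by a median of 4.92 over these 10 genes, and DEK replicate 2 by 2.67. Over the 17 synthesis genes the same medians were 1.99 for DEK replicate 1 and 2.12 for DEK replicate 2. The lean towards DEK replicate 2 was also present in 9 of 10 muscle stem cell markers and 10 of 11 fatty acid synthesis genes. So it was in 12 of 15 genes of esterification, uptake and intracellular transport and 5 of 5 erythroid markers. DEK replicate 2 was the higher in 9 of 13 macrophage markers, near the share of all genes tested, and in 1 of 12 endothelial markers. These lists were counted whole, with genes that were not tested. The level of Dek, at 3196 and 1639.5 FPKM, was also the higher in DEK replicate 1.

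**Figure D3:**
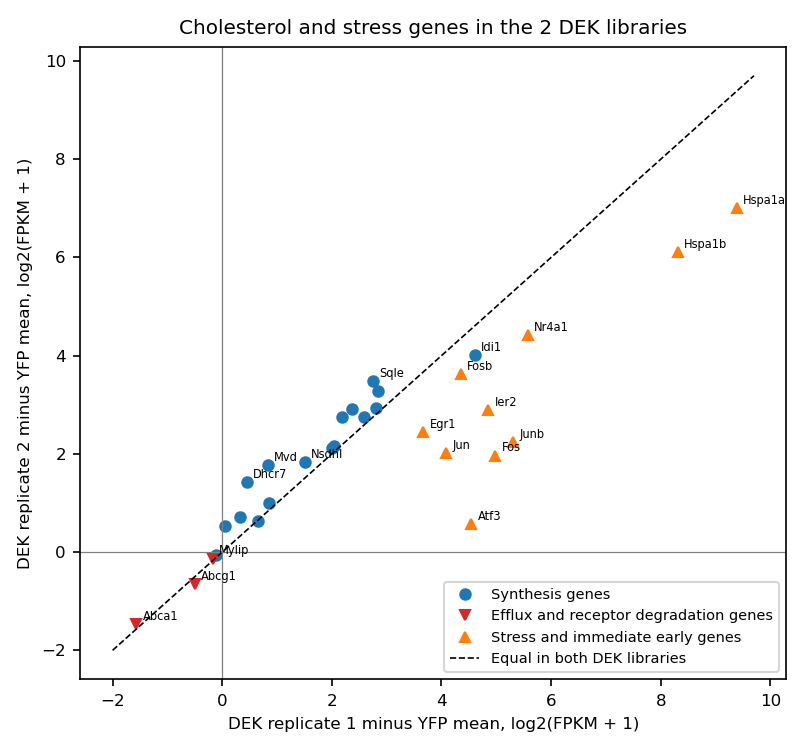
Difference from the YFP mean on the log2(FPKM + 1) scale in DEK replicate 1 (horizontal axis) and DEK replicate 2 (vertical axis) for the 17 synthesis genes (circles), the 3 efflux and receptor degradation genes (downward triangles) and 10 stress and immediate early genes (upward triangles). All 10 stress genes lie below the dashed line of equal values and 15 of the 17 synthesis genes lie above it.

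Markers of other cell types also differed between the groups. By limma, 6 of 13 macrophage markers (10 tested) and 10 of 12 endothelial markers were higher in DEK. So were 5 of 8 fibro-adipogenic markers, 2 of 7 mural markers and 1 of 5 erythroid markers (4 tested). The fibro-adipogenic marker Col3a1 was lower. Of all genes tested, 4.57% were higher and 3.21% lower. All macrophage and endothelial markers called higher, and Pi16, Myh11 and Hba-a1, were below 1 FPKM in both YFP libraries. They passed the filter only through DEK and could only come out higher, so nothing is read from their calls. The summed level of the macrophage markers was 106 and 133 FPKM in DEK and 3.88 and 20.1 FPKM in YFP, with 6 of the 13 at 0 in both YFP libraries, among them Adgre1, C1qa and Tyrobp. Of those sums Lyz2 alone made up 73.4 and 100.1 FPKM in DEK, against 0.1997 and 15.2 FPKM in YFP. The endothelial markers, of which 3 were at 0 in both YFP libraries, summed to 199 and 163 FPKM in DEK and 69.1 and 62.0 FPKM in YFP. Without Tek, which made up most of the YFP sums, the other 11 summed to 120.1 and 96.6 FPKM in DEK and 13.2 and 5.34 FPKM in YFP.

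The fibro-adipogenic markers summed to 1321 and 1377 FPKM in DEK and 1230.2 and 1049 FPKM in YFP. Within that list Ly6a stood at 16.6 and 16.6 FPKM in DEK and at 1.38 and 1.61 FPKM in YFP, and Dcn at 58.3 and 65.8 FPKM in DEK and at 13.9 and 12.6 FPKM in YFP, while Col3a1 stood at 206 and 267 FPKM in DEK and at 602 and 459 FPKM in YFP. The mural markers summed to 155 and 182 FPKM in DEK and 237 and 232 FPKM in YFP, although Rgs5 and Myh11 were called higher. The erythroid markers summed to 24.9 and 347 FPKM in DEK and 7.71 and 0.299 FPKM in YFP, most of it in DEK replicate 2. The myofibre markers, of which 0 of 3 tested passed in limma, summed to 79.2 and 28.2 FPKM in DEK and 57.8 and 48.9 FPKM in YFP. The ribosomal RNA precursor Rn45s made up 5.15% and 5.55% of the column total in DEK, and 11.8% and 15.7% in YFP. In these bulk samples, more cells of a type and more RNA per cell cannot be told apart. The part of such cells, of stress, of Rn45s or of age in the cholesterol genes was not tested.

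Other genes of sterol and lipid metabolism were counted whole from lists, with limma's adjusted p over all genes tested as the threshold. The shares of all genes tested that passed were 4.57% higher and 3.21% lower, the background for each count below. The lists were chosen with earlier results of these data known, so the counts are a description. In fatty acid synthesis, the part of lipid metabolism that SREBP1 is best known to drive, 4 of 10 tested genes rose, 0 fell and 6 did not pass, with a median log2 fold change of 0.84. Acly, which makes cytosolic acetyl-CoA from citrate, stood at 44.5 and 53.7 FPKM in DEK, against 18.5 and 22.3 FPKM in YFP (log2 fold change 1.23, SE 0.17, limma adjusted p = 0.0182). The fatty acid synthase Fasn stood at 67.5 and 82.0 FPKM in DEK, against 29.1 and 36.2 FPKM in YFP (log2 fold change 1.17, SE 0.18, limma adjusted p = 0.021). The desaturase Scd1 and the elongase Elovl6 also rose (Scd1: log2 fold change 0.79, SE 0.15; Elovl6: 0.85, SE 0.18).

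Isoprenoid branch and other sterol enzymes held 1 of 14 genes that rose and 0 that fell, with a median log2 fold change of 0.18. Aacs, which activates acetoacetate in the cytosol for lipid synthesis, rose to 659 and 847 FPKM in DEK, against 272 and 347 FPKM in YFP (log2 fold change 1.28, SE 0.20, limma adjusted p = 0.0228). Pggt1b, a subunit of a protein prenyltransferase, and Nus1, of dolichol synthesis, did not pass (Pggt1b: log2 fold change 0.48, SE 0.18; Nus1: -0.52, SE 0.18). Of 8 tested genes of SREBP processing and turnover, 0 passed in limma in either direction. The closest was Rnf139, a sterol-regulated ubiquitin ligase, with a log2 fold change of -0.62 (SE 0.15, limma adjusted p = 0.0594), and the median of the list was -0.09.

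In esterification, uptake and intracellular transport, 1 of 14 tested genes rose and 2 fell, beside 4.57% and 3.21% of all genes. Tmem97, a sterol-regulated membrane protein that binds Npc1, stood at 16.2 and 22.2 FPKM in DEK, against 9.00 and 7.44 FPKM in YFP (log2 fold change 1.12, SE 0.21, limma adjusted p = 0.0366). Vldlr, a receptor for lipoproteins rich in triglyceride, stood at 58.9 and 63.1 FPKM in DEK, against 155 and 141 FPKM in YFP (log2 fold change -1.26, SE 0.14, limma adjusted p = 0.00882). Lrp1, a large scavenging receptor of the same family, stood at 114 and 126 FPKM in DEK, against 185 and 182 FPKM in YFP (log2 fold change -0.61, SE 0.13, limma adjusted p = 0.0477).

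Of 9 tested Lxr partners and other Lxr-type genes, 0 passed in limma, and the list had a median log2 fold change of 0.16. The lipase Lpl and the lipid transfer protein Pltp were on the positive side (Lpl: log2 fold change 0.75, SE 0.17; Pltp: 0.86, SE 0.24). The partner receptors Rxra and Rxrb were on the negative side (Rxra: -0.53, SE 0.16; Rxrb: -0.78, SE 0.22). Of the oxysterol enzymes 2 of 4 were tested and 0 passed: Cyp27a1 averaged 16.8 ± 0.494 FPKM in DEK and 18.7 ± 3.68 FPKM in YFP (SD, n = 2 each), and Cyp46a1 was near 1 FPKM in both groups.

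**Figure D4:**
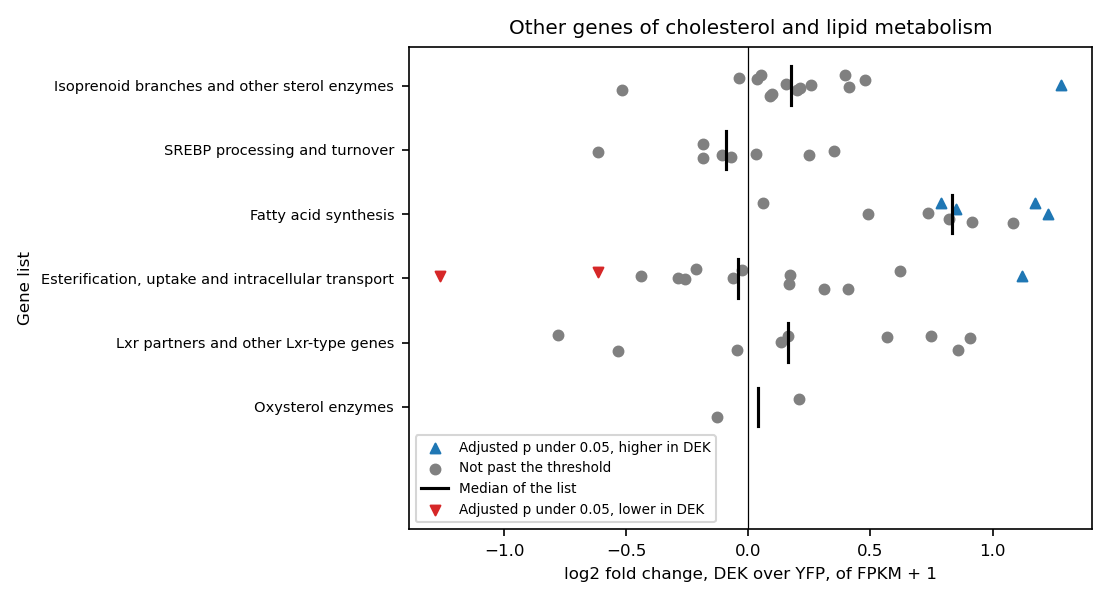
Log2 fold change of DEK over YFP on the log2(FPKM + 1) scale (horizontal axis) for each tested gene of 6 further lists (rows), with upward triangles for genes past an adjusted p of 0.05 and higher in DEK, downward triangles for those lower in DEK, grey circles for the others and a black bar at the list median. The fatty acid synthesis genes lie to the right of 0 with a median of 0.84, and Vldlr lies farthest to the left at -1.26.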

How the data were processed

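Polyadenylated RNA of 2 DEK and 2 YFP libraries was analysed from the authors' deposited table, which holds 1 value per gene symbol and library. The values are taken to be FPKM that the authors computed in StringTie 1.3.3 after alignment with STAR 2.5.3a to build mm9, per the submitters' processing notes, which also name R 3.4.1. The unit was inferred from the values, and TPM cannot be told apart from it. Annotation and settings were not given in the sources used here. Depth is unknown, so no counting intervals are given.

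Values were analysed as log2(FPKM + 1), a scale that understates changes of low genes, in R 4.3.3 with limma 3.58.1. DEK was compared with YFP over the 12179 genes that reached 1 FPKM in 2 libraries or more, with a variance trend, no covariates, two-sided tests and Benjamini-Hochberg adjustment over all of them. The procedure was tested on simulated data. The genes described, the further lists and the motifs were chosen with earlier results of these data known; all 29 genes were taken, and up to 4 genes with the smallest p in each further list, though some genes that this takes are not named and 1 gene of the isoprenoid and sterol enzyme list is not reported here. Promoters came from RefSeq (GRCm38.p6), a later build than the files', so no coordinate was mixed. With 2 libraries a group the smallest exact permutation p would be 0.333, and no such test was used. Alternatives were the added value, filter, scaling by the trimmed mean of M values (TMM, trims of 30 and 5%), by quantiles or with the ribosomal RNA precursor Rn45s removed, variance trend, a replicate block and each library left out.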

Additional observations from a re-analysis of the deposited data

How the results depend on the processing

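Over all alternatives run, the measured synthesis genes kept a positive and the efflux genes a negative median log2 fold change. With an added value of 0.1 the efflux median was -0.76; with 5 the medians were 1.34 (synthesis) and -0.28 (efflux). At 5 FPKM in 2 libraries, which drops Abcg1 and Dhcr7, the efflux median was -0.83 and the synthesis median 2.08. With Rn45s removed they were 1.93 and -0.69, and the median of all genes went to -0.07. Without a low-value filter limma called 216 genes higher and 77 lower in all, against 557 and 391. Higher and lower calls numbered 582 and 521 with TMM, 479 and 507 with quantile normalization and 429 and 558 with Rn45s removed. With the replicate block 383 genes were higher and 235 lower, and 12 and 1 of the 28 genes as without it; deviations of same-numbered libraries had a correlation of 0.06 across genes, so the pairing rests on the number alone. Of the 28 genes, 13 were called higher with TMM and at 5 FPKM, where Srebf2 gained a call (adjusted p = 0.041 and 0.0478), and 11 without a filter, where Nsdhl lost its call (adjusted p = 0.0518). With 1 library left out, 0 to 139 genes were called higher and 0 to 45 lower, 0 to 9 of the 28 higher and 0 lower, with medians of 1.89 to 2.13 (synthesis) and -0.77 to -0.38 (efflux). The cause of these shifts was not tested. In 4 of the 28 genes, none called, the sign turned. Scap turned to -0.0201 with TMM, -0.0398 with quantile normalization and -0.11 with Rn45s removed, and ran from -0.11 to 0.14 with a library left out. Insig2 turned to -0.0023 with quantile normalization and -0.00105 with Rn45s removed. Npc2 turned to -0.085 and -0.0776 under the same settings and ran from -0.0265 to 0.138 with a library left out, and Tm7sf2 from -0.32 to 0.90. With 2 libraries a group and unknown depth, small differences such as that of Mylip are not resolved.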

Other observations

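Some genes of the further lists were too low to test. The oxysterol-making enzyme Ch25h stood at 3.42 and 0.287 FPKM in DEK and at 0.574 and 0 FPKM in YFP, so that DEK replicate 1 stood apart. Cyp7b1, which clears oxysterols, stood at 0.135 and 0.471 FPKM in DEK and was listed at 0 in both YFP libraries. The sterol exporter Abcg8 was listed at 0 in all 4 libraries and Abcg5 in 3 of them.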
